A study of Homo sapiens with 6 samples.

Results

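SLNCR is a long non-coding RNA that RefSeq lists as LINC00673, and 7 genes of its locus and of its reported protein partners were followed here through RNA sequencing of A375 cells, an established human melanoma line. The genes were taken by name: LINC00673 itself, its neighbours LINC00511 and SOX9 on chromosome 17, the transcription factor genes POU4F1 and TFAP2A, and PTPN11 and PRPF19. Of these 7 genes, 6 are described, out of 18318 genes used, and POU4F1 was not analysed here. Cells of the SLNCR group were transfected, using Lipofectamine, with a pcDNA3.1 plasmid carrying SLNCR, called full length in the sample titles, and cells of the empty vector group with pcDNA3.1 alone. Per the labels' protocols the plasmid carries a CAG promoter, a strong and broadly active promoter, and a puromycin resistance gene. All 6 cultures were kept for 48 h under puromycin selection (2 µg/mL), which removes untransfected cells, before total RNA was extracted and depleted of ribosomal RNA. Each group had 3 libraries. The series text calls them biological replicates and does not say how cultures were separated, so p-values measure the spread between these libraries only. Values of single libraries are given in the order of replicates 1, 2 and 3. The series asks which genes respond to SLNCR in these cells.

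In melanoma, SLNCR is known as an RNA that promotes invasion, and it has been reported to act with Brn3a, the product of POU4F1, at the promoter of the matrix metalloprotease gene MMP9. In pancreatic cells, LINC00673 has been reported to strengthen the contact between the phosphatase SHP2, encoded by PTPN11, and the ubiquitin ligase PRPF19, which marks SHP2 for degradation. SHP2 passes growth factor signals to RAS and ERK, and PRPF19 is also the core of a spliceosomal complex. Both of these reported mechanisms act on proteins or on DNA-bound complexes, and messenger RNA levels measure neither the binding nor the degradation itself. The messenger RNA of MMP9 is an output of the first mechanism, and its counts are given below.

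The locus lies on chromosome 17 of GRCh38. RefSeq places LINC00673 from 72403322 to 72592804 on the minus strand (GRCh38.p14), and its 5 transcripts have 3 to 5 exons and lengths of 2160 to 2527 bases. Their exons cover 2624 bases in all, of which 2027 (77.2%) are in every transcript. The exons present in every transcript include a 63-base exon, and a 97-base exon is in 2 of the 5 transcripts. Of the 5 transcripts, 3 start at 72592804, the start used here, and 2 start at 72592692. The RefSeq transcript of LINC00511 is on the same strand, from 72598041 to 72640472, with 5 exons and 2265 bases, and ends 5.24 kb before the LINC00673 start. It shares 0 exonic bases with LINC00673. GENCODE 29 draws LINC00511 wider, from 72290091 to 72640472 with 106 transcripts, and all 2624 exonic bases of LINC00673 fall within its exons, where they make up 9.51% of 27605 bases. SOX9 lies on the plus strand from 72121020 to 72126420, and 276.9 kb separate its end from the 3′ end of LINC00673.

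**Figure D1:**
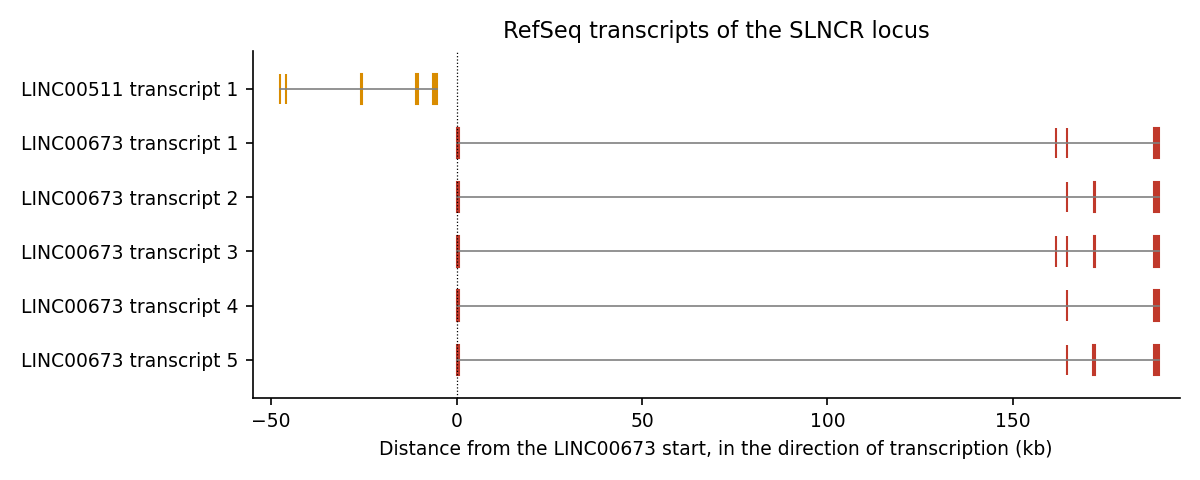
RefSeq transcripts of LINC00511 and LINC00673 drawn to scale, with boxes for exons, lines for introns, and the x axis giving distance in kb from the LINC00673 start in the direction of transcription. The LINC00511 transcript starts 47.7 kb upstream and ends 5.24 kb before the LINC00673 start. The 5 LINC00673 transcripts differ in their internal exons and at their ends.

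The promoters of the 2 neighbouring RNAs are shown because they are separate starts on one strand, and the 2 short exons because they are the common and an optional internal part of SLNCR. The promoter windows (RefSeq, GRCh38.p14, minus strand) span 250 bases before to 50 bases after the start, at chr17:72592755-72593054 for LINC00673 and chr17:72640423-72640722 for LINC00511. The exons (GRCh38, minus strand, GENCODE 29 transcripts linked to the RefSeq entries) lie at chr17:72428236-72428298 and chr17:72431128-72431224. Capitals mark GCCNNNGGC, the palindromic consensus of AP-2 factors such as the product of TFAP2A, which reads the same on both strands.
LINC00673 promoter: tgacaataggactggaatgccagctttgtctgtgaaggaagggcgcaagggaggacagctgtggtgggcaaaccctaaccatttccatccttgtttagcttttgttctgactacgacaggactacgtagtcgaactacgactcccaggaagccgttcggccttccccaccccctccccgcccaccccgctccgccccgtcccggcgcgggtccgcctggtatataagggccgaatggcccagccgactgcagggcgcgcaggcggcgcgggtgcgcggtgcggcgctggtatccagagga
LINC00511 promoter: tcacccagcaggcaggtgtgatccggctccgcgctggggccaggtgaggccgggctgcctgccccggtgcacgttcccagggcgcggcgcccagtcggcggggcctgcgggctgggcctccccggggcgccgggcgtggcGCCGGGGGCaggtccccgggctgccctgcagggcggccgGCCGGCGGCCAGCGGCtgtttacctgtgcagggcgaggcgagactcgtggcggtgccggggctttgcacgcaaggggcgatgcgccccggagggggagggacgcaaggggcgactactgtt
LINC00673 63-base exon: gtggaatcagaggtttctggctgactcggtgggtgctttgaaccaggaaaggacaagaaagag
LINC00673 97-base exon: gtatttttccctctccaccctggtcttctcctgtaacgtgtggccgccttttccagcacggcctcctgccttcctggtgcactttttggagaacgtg

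The LINC00511 window held the AP-2 consensus 3 times, starting 110, 71 and 64 bases before the start, the last 2 of them overlapping. The LINC00673 window held it 0 times. Other spacings between GCC and GGC were not searched, so this contrast covers the marked form only. The consensus was in 8146 of 35116 RefSeq promoter windows of this length (23.2%). The LINC00511 window had a GC content of 78.0% and 35 CpG pairs, against 63.3% and 26 in the LINC00673 window. The promoter table held windows for 5 of the 7 genes, and the consensus was in none of the 2 TFAP2A windows, the PRPF19 window and the POU4F1 window. These matches describe letters only, and binding was not measured.

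The 6 libraries held between 9287450 and 10822083 counts. Levels are given as TMM-scaled CPM (read counts brought to a common library size, with the sizes adjusted by the trimmed mean of M-values) and, to compare genes, as that CPM per kilobase of the longest transcript. A gene passed the test at an edgeR quasi-likelihood adjusted p below 0.05, with Benjamini-Hochberg adjustment over 12797 tested genes. In this comparison 2112 genes passed (16.5%), 1131 of them higher (8.84%) and 981 lower (7.67%) with the SLNCR plasmid. Fold changes ran with gene GC content (Pearson's r = -0.63 across 12791 genes, which share the 6 libraries and are no replicates), and a fit that removed that trend in each library passed 2 genes (0.0156%), HIF1A-AS2 and H2BC7, with 1935 genes at an unadjusted p below 0.05. Both fits are therefore given for each member. The count without SLNCR replicate 1, empty vector replicate 1 or empty vector replicate 2 was 1, 1 and 2 genes, and in each of these LINC00673 passed, joined by RPLP1 in the last. Without SLNCR replicate 2 the count was 3366.

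SLNCR was 10.39-fold higher in the SLNCR libraries than in the empty vector libraries, the largest change among the 12797 tested genes. LINC00673 had 1786, 2569 and 2040 counts in SLNCR libraries, against 195, 194 and 193 counts in empty vector libraries. These were 169.8, 246.9 and 227.0 CPM with the SLNCR plasmid and 19.5, 21.4 and 21.1 CPM with the empty vector. All SLNCR libraries were above all empty vector libraries, and SLNCR replicate 1 was the lowest of its group. The mean was 215 ± 40.03 CPM in SLNCR libraries, against 20.6 ± 1.04 CPM in empty vector libraries (SD, n = 3 each). The spread relative to the mean was 18.7% with the SLNCR plasmid and 5.05% with the empty vector.

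The log2 fold change of LINC00673 was 3.38 (SE 0.147, 95% interval 3.045 to 3.71, edgeR adjusted p = 3.11e-05). Its longest RefSeq transcript has 2527 bases and a GC content of 53.2%. With the GC correction the log2 fold change was 3.47 (SE 0.202, 95% interval 2.94 to 4.002, edgeR unadjusted p = 2.13e-05), and the adjusted p was 0.0539. Plasmid and genomic transcripts of SLNCR were counted together. In these bulk libraries more cells carrying the plasmid and more SLNCR per cell cannot be told apart, nor can fewer cells of a type and less RNA per cell for any other gene.

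The level of SLNCR changed its place among genes. Per kilobase it was 67.2, 97.7 and 89.8 CPM in SLNCR libraries, against 7.70, 8.46 and 8.36 CPM in empty vector libraries. By the mean of these values LINC00673 ranked 607 of 18308 genes in SLNCR libraries and 6775 of 18308 in empty vector libraries. As TPM, a level per length scaled to a fixed total and computed here from the counts, the means were 205.9 ± 36.9 in SLNCR libraries and 19.1 ± 1.59 in empty vector libraries (SD, n = 3 each).

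Among the other 5 measured members, 0 passed the test, and 0 passed with the GC correction. The groups did not overlap in CPM for SOX9, TFAP2A and PTPN11, 3 of the 5, where 38.9% of all tested genes did not overlap. For SOX9 and TFAP2A all SLNCR libraries were below all empty vector libraries, a pattern shared by 19.1% of tested genes. The 5 log2 fold changes lay between -0.41 and 0.10.

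LINC00511, a non-coding RNA described in several cancers as promoting growth, was the lowest of the measured members. It had 10, 10 and 14 counts in SLNCR libraries, against 16, 15 and 12 counts in empty vector libraries. The groups overlapped. The mean was 1.16 ± 0.348 CPM in SLNCR libraries and 1.52 ± 0.182 CPM in empty vector libraries (SD, n = 3 each). In the fit, LINC00511 had a log2 fold change of -0.41 (SE 0.335, 95% interval -1.12 to 0.29, edgeR adjusted p = 0.395), so at this depth neither a fall of that size nor a small rise could be told from no change. With the GC correction it was -0.41 (edgeR adjusted p = 0.591). Without SLNCR replicate 3 it was -0.66 (edgeR adjusted p = 0.292), and leaving out any other library gave -0.50 to -0.29. How reads in exons that GENCODE assigns to LINC00511 and RefSeq to LINC00673 were counted is not given in the sources used here, and the split between both rows is uncertain for that reason.

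SOX9, a transcription factor of neural crest, cartilage and melanoma cells, did not pass the test. It had 1387, 1395 and 1205 counts in SLNCR libraries, against 1527, 1310 and 1276 counts in empty vector libraries. Scaled to library size these were 131.8, 134.1 and 134.1 CPM with the SLNCR plasmid, and 152.3, 144.3 and 139.7 CPM with the empty vector. In CPM the groups did not overlap, and the SLNCR libraries lay close together. The mean was 133 ± 1.28 CPM in SLNCR libraries and 145 ± 6.41 CPM in empty vector libraries (SD, n = 3 each). This was a log2 fold change of -0.13 (SE 0.0563, 95% interval -0.24 to -0.01, edgeR adjusted p = 0.122), and -0.07 with the GC correction (edgeR adjusted p = 0.48). The antisense gene SOX9-AS1, which spans SOX9 on the other strand, had 0, 1 and 0 counts in SLNCR libraries and 1, 4 and 1 counts in empty vector libraries.

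TFAP2A encodes AP-2 alpha, a transcription factor of neural crest and melanocyte development. It had 255, 263 and 225 counts in SLNCR libraries, against 317, 258 and 251 counts in empty vector libraries. In CPM these were 24.2, 25.3 and 25.0 with the SLNCR plasmid, and 31.6, 28.4 and 27.5 with the empty vector. The raw counts overlapped and the scaled values did not. The mean was 24.9 ± 0.542 CPM in SLNCR libraries and 29.2 ± 2.17 CPM in empty vector libraries (SD, n = 3 each). This was a log2 fold change of -0.23 (SE 0.0893, 95% interval -0.42 to -0.04, edgeR adjusted p = 0.0763), and -0.20 with the GC correction (95% interval -0.38 to -0.03, edgeR adjusted p = 0.251). Of its overlapping antisense genes, TFAP2A-AS2 had a log2 fold change of -0.19 (edgeR adjusted p = 0.369) and TFAP2A-AS1 of -0.40 (edgeR adjusted p = 0.508), and without a stated strand setting their reads cannot be told from those of TFAP2A where both are transcribed.

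PTPN11 encodes SHP2, and its gene lies on chromosome 12 from 112418351 to 112509913 on the plus strand. It had 4735, 4626 and 4186 counts in SLNCR libraries, against 4174, 3718 and 4023 counts in empty vector libraries. In CPM these were 450.1, 444.6 and 465.8 with the SLNCR plasmid, and 416.4, 409.5 and 440.3 with the empty vector. The groups did not overlap, and the highest empty vector library, replicate 3, was just below the lowest SLNCR library, replicate 2. The mean was 453.5 ± 11.02 CPM in SLNCR libraries and 422.1 ± 16.2 CPM in empty vector libraries (SD, n = 3 each).

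In the fit, PTPN11 had a log2 fold change of 0.10 (SE 0.048, 95% interval 0.002 to 0.205, edgeR adjusted p = 0.134). With the GC correction its direction turned, to -0.01 (SE 0.0362, 95% interval -0.09 to 0.06, edgeR adjusted p = 0.886). PTPN11 has a GC content of 42.2%, and the 1193 tested genes within 1 percentage point of it had an uncorrected median log2 fold change of 0.12. It shares 488 bases with the ribosomal protein gene RPL6 on the other strand, which had 7574, 8083 and 5444 counts in SLNCR libraries, against 8205, 7049 and 7242 counts in empty vector libraries. RPL6 had a log2 fold change of -0.18 (edgeR adjusted p = 0.0872).

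PRPF19, the ubiquitin ligase and splicing factor on chromosome 11 (60890730 to 60906588, minus strand), was the highest member per kilobase in both groups. It had 3350, 3508 and 2989 counts in SLNCR libraries, against 3390, 3083 and 3020 counts in empty vector libraries. In CPM these were 318.5, 337.1 and 332.6 with the SLNCR plasmid, and 338.2, 339.6 and 330.5 with the empty vector. The groups overlapped, and SLNCR replicate 1 was the lowest library. The mean was 329.4 ± 9.74 CPM in SLNCR libraries and 336.1 ± 4.87 CPM in empty vector libraries (SD, n = 3 each). In the fit, PRPF19 had a log2 fold change of -0.03 (SE 0.048, 95% interval -0.13 to 0.07, edgeR adjusted p = 0.689). The 728 tested genes within 1 percentage point of its GC content of 56.6% had an uncorrected median of -0.15. Its direction also turned with the GC correction, to 0.12 (SE 0.0411, 95% interval 0.04 to 0.21, edgeR adjusted p = 0.157).

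PTPN11 and PRPF19 can be set against each other with no scaling factor. There were 1.41, 1.32 and 1.40 reads of PTPN11 per read of PRPF19 in SLNCR libraries, against 1.23, 1.21 and 1.33 in empty vector libraries. The ratio averaged 1.38 ± 0.0514 in SLNCR libraries and 1.26 ± 0.0667 in empty vector libraries (SD, n = 3 each). The groups overlapped, and a two-sided exact permutation test gave p = 0.20, where 3 libraries against 3 can reach 0.10 at the least. The GC correction moved PTPN11 by -0.118 and PRPF19 by 0.153 on the log2 scale, so this ratio carries both shifts.

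**Figure D2:**
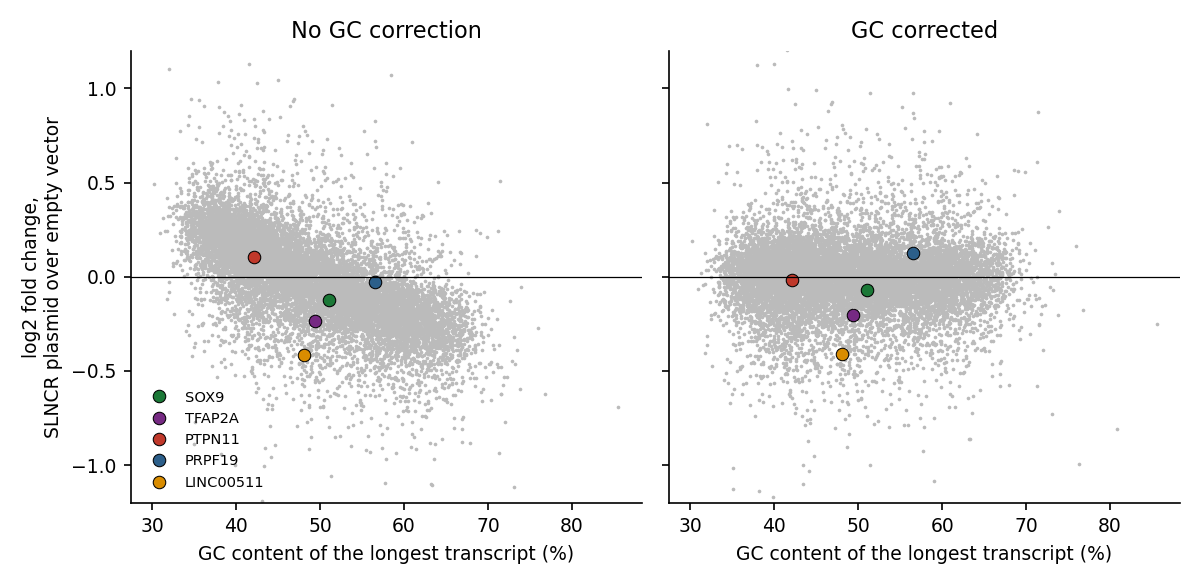
The log2 fold change of each tested gene (grey) against the GC content of its longest transcript in percent, with no correction on the left and with the GC correction on the right, and 5 members in colour. The uncorrected cloud slopes down (Pearson's r = -0.63). PTPN11 (42.2% GC) goes to -0.01 and PRPF19 (56.6% GC) to 0.12 with the correction, and genes beyond the axis, LINC00673 among them, are not drawn.

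Per kilobase, the order in SLNCR libraries was PRPF19 (152.7 ± 4.51 CPM per kb), LINC00673 (84.9 ± 15.8), PTPN11 (74.3 ± 1.81), SOX9 (33.9 ± 0.327), TFAP2A (6.49 ± 0.141) and LINC00511 (0.307 ± 0.0923), each as mean and SD with n = 3. In empty vector libraries it was PRPF19 (155.8 ± 2.26 CPM per kb), PTPN11 (69.2 ± 2.65), SOX9 (37.0 ± 1.63), LINC00673 (8.17 ± 0.413), TFAP2A (7.62 ± 0.568) and LINC00511 (0.404 ± 0.0482). With these lengths SLNCR stood beside PTPN11 with its plasmid and beside TFAP2A without it, and these neighbours did not differ beyond their spread. LINC00673 was below PTPN11 in SLNCR replicate 1 and above it in the other two, and in empty vector libraries it was below TFAP2A in replicate 1. Every other pair of neighbours was separated in every library. The closeness to TFAP2A depends on the length used. With the exonic length of all transcripts of a gene, the empty vector libraries had 7.87 ± 0.398 CPM per kb of LINC00673 and 3.53 ± 0.263 of TFAP2A (SD, n = 3 each), which is beyond their spread. By that length LINC00673 was also at 101.0%, 148.6% and 130.4% of PTPN11 in the SLNCR libraries. LINC00511 was then at 0.0419 CPM per kb in SLNCR libraries and 0.0551 in empty vector libraries.

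**Figure D3:**
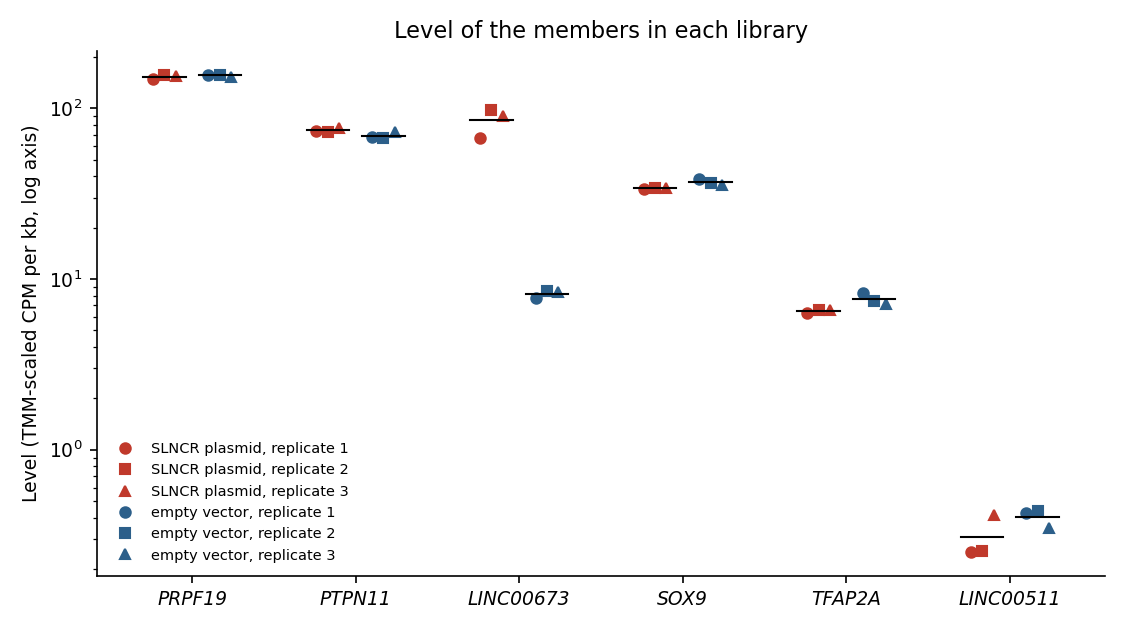
Level of the 6 measured members in each library, in TMM-scaled CPM per kb on a log axis, with SLNCR plasmid libraries in red left of empty vector libraries in blue, a marker shape per replicate, and bars for the means. LINC00673 is at 84.9 CPM per kb with the SLNCR plasmid and at 8.17 with the empty vector, and it is the one member of the 6 that passed the test.

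With the plasmid there were fewer partner reads for each SLNCR read. PTPN11 had 2651, 1801 and 2052 reads per 1000 SLNCR reads in SLNCR libraries, against 21405, 19165 and 20845 in empty vector libraries. PRPF19 had 1876, 1366 and 1465 reads per 1000 SLNCR reads in SLNCR libraries, against 17385, 15892 and 15648 in empty vector libraries. These are ratios of raw counts and need no library scaling. The ratio was 9.56-fold lower in SLNCR libraries for PTPN11 and 10.5-fold lower for PRPF19.

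SOX9 averaged 637 ± 123 reads per 1000 SLNCR reads in SLNCR libraries and 7065 ± 667 in empty vector libraries (SD, n = 3 each), 11.2-fold lower with the plasmid. TFAP2A averaged 118 ± 21.4 in SLNCR libraries and 1419 ± 180 in empty vector libraries (SD, n = 3 each), 12-fold lower. LINC00511 averaged 5.45 ± 1.49 in SLNCR libraries and 73.8 ± 10.4 in empty vector libraries (SD, n = 3 each), 13.8-fold lower. The groups did not overlap for any of the 5 ratios, and each had a two-sided exact permutation p = 0.10, the smallest that 3 against 3 can give. All 5 share the SLNCR counts and so repeat its change. In every ratio the SLNCR libraries were ordered 1, 3, 2 from high to low, except for LINC00511, where replicate 3 was the highest.

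Set per kilobase, SLNCR was at 45.5%, 62.5% and 58.3% of the level of PRPF19 in SLNCR libraries, against 4.91%, 5.37% and 5.46% in empty vector libraries. Relative to PTPN11 it was at 91.1%, 134.1% and 117.7% with the SLNCR plasmid and at 11.3%, 12.6% and 11.6% with the empty vector. With the longest transcripts, the values in the SLNCR libraries lie on both sides of equality with PTPN11. Relative to SOX9 it averaged 250.3% ± 44.6 with the SLNCR plasmid and 22.2% ± 1.99 with the empty vector (SD, n = 3 each). Relative to TFAP2A it averaged 1305% ± 218 with the SLNCR plasmid and 107.9% ± 12.8 with the empty vector (SD, n = 3 each). With the exonic length of all transcripts these were 2716% ± 453 and 224.5% ± 26.6.

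**Figure D4:**
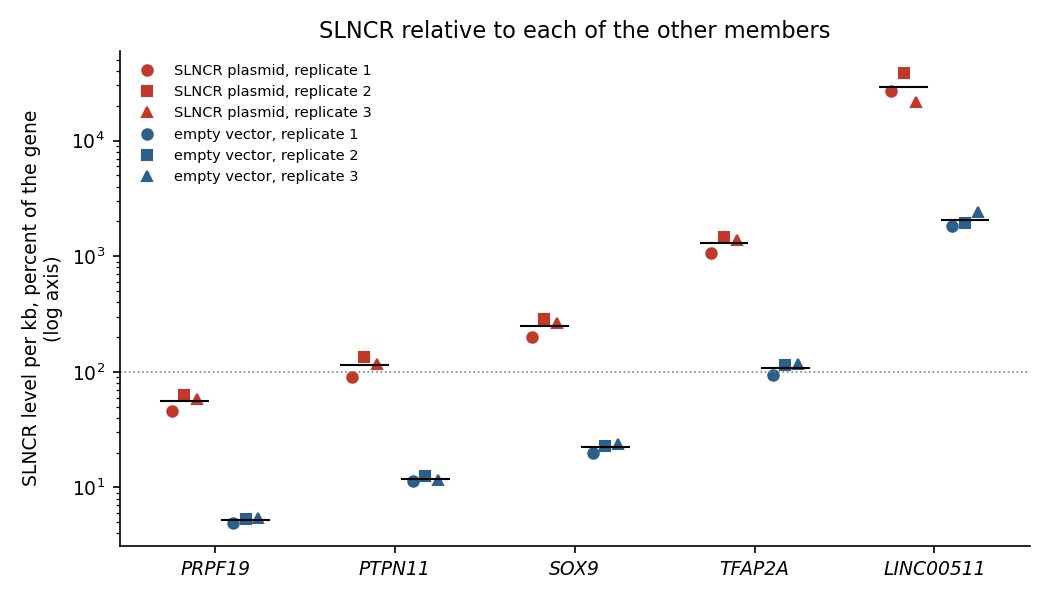
The level of SLNCR per kb as a percentage of that of each other measured member, on a log axis, with SLNCR plasmid libraries in red left of empty vector libraries in blue, a marker shape per replicate, and bars for the means. The dotted line marks equal levels. SLNCR lies at 114.3% of PTPN11 with the SLNCR plasmid and at 11.8% with the empty vector.

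Of 5 other genes reported with SLNCR that are described here, 4 could be tested and 1, E2F1, passed, where 16.5% of all tested genes passed. The cell cycle transcription factor gene E2F1 fell by 0.32 in log2 terms (SE 0.0852, edgeR adjusted p = 0.0218). With the GC correction its log2 fold change was -0.08 (edgeR adjusted p = 0.588), and without SLNCR replicate 1, empty vector replicate 1 or empty vector replicate 2 the uncorrected adjusted p was 0.0786, 0.143 and 0.0804.

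The immediate early factor gene EGR1 had a log2 fold change of -0.19 (edgeR adjusted p = 0.219). CDKN1A, the gene of the cell cycle inhibitor p21, was at 0.01 (edgeR adjusted p = 0.936) and at 0.18 with the GC correction (edgeR adjusted p = 0.0886). PXN, the gene of the focal adhesion protein paxillin, was at -0.07 (edgeR adjusted p = 0.3), and its direction turned to 0.14 with the GC correction (edgeR adjusted p = 0.146). MMP9 had 0, 1 and 1 counts in SLNCR libraries and 1, 0 and 2 counts in empty vector libraries, too few to test.

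**Figure D5:**
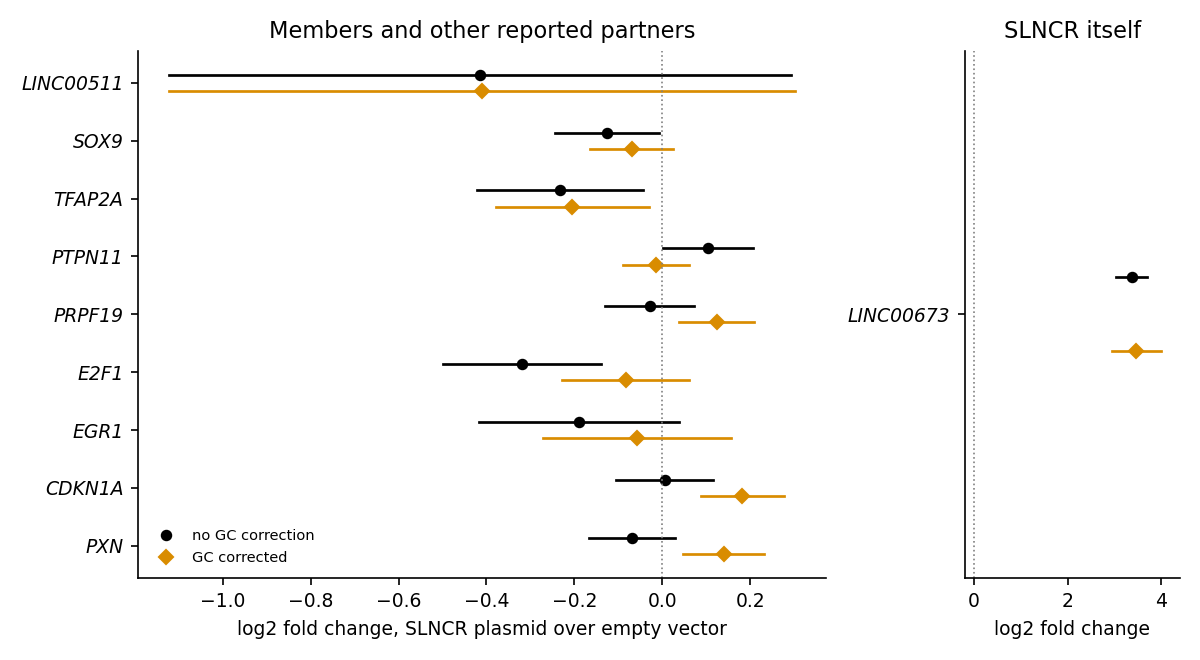
The log2 fold change (SLNCR plasmid over empty vector) of 5 members and 4 other reported genes on the left and of LINC00673 on the right, with 95% intervals as lines, without correction in black and with the GC correction in orange. LINC00673 is at 3.38 and 3.47. The other values lie between -0.41 and 0.18, and those of PTPN11, PRPF19 and PXN change sign between both fits.

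Of 30 adaptors, receptors and regulators that feed SHP2 and RAS, 27 were tested, 2 were higher, 1 was lower and 24 did not pass. The share that passed was 11.1%, against 16.5% of all tested genes, with a median log2 fold change of 0.03 where all tested genes had -0.01. The ERK pathway inhibitor gene SPRED1 rose by 0.26 (edgeR adjusted p = 0.0159) and the RAS exchange factor gene SOS1 by 0.25 (edgeR adjusted p = 0.0316), and the receptor gene ERBB2 fell by 0.25 (edgeR adjusted p = 0.0317), on the log2 scale. After correction for GC content they stood at 0.07 for SPRED1, 0.05 for SOS1 and -0.09 for ERBB2 (edgeR adjusted p = 0.475, 0.706 and 0.591).

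A list of 20 genes held subunits of the PRPF19 spliceosomal complex and other splicing factors. Of these, 4 were higher, 1 was lower and 15 did not pass. The share that passed was 25%, against 16.5% of all tested genes, of which 8.84% were higher and 7.67% lower. The listed genes had a median log2 fold change of 0.11, and 0.002 with the GC correction. Their median GC content was 44.1% against 47.9% over all tested genes. The cyclophilin gene PPIL1 rose by 0.31 (edgeR adjusted p = 0.0179), the splicing factor gene CWC22 by 0.29 (edgeR adjusted p = 0.0286) and the helicase gene AQR by 0.24 (edgeR adjusted p = 0.0353), while the splicing and DNA repair factor gene XAB2 fell by 0.31 (edgeR adjusted p = 0.0255). After correction for GC content these were 0.26 for PPIL1, 0.13 for CWC22, 0.08 for AQR and -0.09 for XAB2. With the GC correction 0 genes of these lists passed, nor did any other list gene named here. Of 12 list genes named as passing, E2F1 included, 0 passed without SLNCR replicate 1, empty vector replicate 1 or empty vector replicate 2.

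In the families of the transcription factors 1 gene passed. It was 11.1% of the tested SOX genes, against 16.5% of all tested genes. Lists this short, those of AP-2 and POU genes below included, cannot set their shares apart from that one. Of 9 tested SOX genes, SOX12, a factor of the SOX4 and SOX11 group, fell by 0.25 (edgeR adjusted p = 0.0415) and was at -0.02 with the GC correction (edgeR adjusted p = 0.916). SOX5, a melanocyte and cartilage factor, had 18, 18 and 29 counts in SLNCR libraries, against 14, 10 and 10 counts in empty vector libraries. The groups did not overlap, as for 38.9% of all tested genes. Its log2 fold change was 0.85 (edgeR adjusted p = 0.0847), and 0.67 with the GC correction (edgeR adjusted p = 0.347). Of 6 tested genes of the AP-2 list, which counts TFAP2A, its antisense RNA and AP-2 inhibitors, 0 passed, with a median of -0.19. TFAP2C, the gene of AP-2 gamma, was the family member set beside TFAP2A, with 82.0 CPM in SLNCR libraries and 78.7 CPM in empty vector libraries on average, a log2 fold change of 0.06 (edgeR adjusted p = 0.555). Of 5 tested POU factor genes, 0 passed.

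The labels call A375 epithelial. Of 14 epithelial and keratinocyte markers used, 10 had a mean under 10 counts. Among these EPCAM, the epithelial adhesion gene, had 4, 2 and 3 counts in SLNCR libraries and 3, 2 and 2 in empty vector libraries. The others were DSP, KRT7, CLDN4 and KRT15. They averaged 46.2, 14.1, 4.64 and 1.83 CPM in SLNCR libraries, and 44.3, 19.7, 4.55 and 2.10 CPM in empty vector libraries. The melanocyte master regulator gene MITF averaged 95.6 CPM in SLNCR libraries and 85.4 CPM in empty vector libraries, and SOX10 averaged 12.7 CPM in SLNCR libraries and 13.4 CPM in empty vector libraries. Of 14 melanocyte markers used, 8 had a mean under 10 counts. Of 6 melanocyte and 4 epithelial markers tested, 0 passed. Summed melanocyte markers were between 118 and 129 CPM in SLNCR libraries and between 102 and 123 CPM in empty vector libraries. Among 13 genes of dedifferentiated melanoma cells, SOX9 included, the neuropilin gene NRP1 rose by 0.17 (edgeR adjusted p = 0.0312), the intermediate filament gene VIM fell by 0.17 (edgeR adjusted p = 0.0328) and the AP-1 factor gene FOSL1 fell by 0.15 (edgeR adjusted p = 0.0444). With the GC correction NRP1 was at 0.11, VIM at -0.18 and FOSL1 at 0.05 (edgeR adjusted p = 0.201, 0.12 and 0.527). The share of the 13 genes that passed without it was 23.1%, against 16.5% of all tested genes. Summed, with SOX9 itself included, the 13 genes had 6812 to 7241 CPM in SLNCR libraries and 7313 to 7657 CPM in empty vector libraries. VIM alone averaged 3093 CPM in SLNCR libraries and 3474 CPM in empty vector libraries. The list went both ways, with a median log2 fold change of -0.05. There were 0 passing genes among 4 tested fibroblast, 2 leukocyte, 12 abundant non-coding RNA and 10 transfection response genes, where 16.5% of all tested genes passed. Of these lists, 6 fibroblast and 5 leukocyte genes had a mean under 10 counts.

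The genes whose pattern over the 6 libraries was nearest to that of LINC00673 were far from it. The likeness was the root mean square difference of gene-centred log2 CPM over 6 libraries, taken over 10624 genes that averaged at least 50 counts. It was 1.38 for DNAJB9, 1.40 for AP5M1, 1.40 for ACSM3, 1.41 for HELB and 1.41 for CERS6-AS1, against a median of 1.69. This measure keeps the size of a change, so genes with a large rise come nearest. DNAJB9, the nearest, had 27.0, 24.7 and 29.8 CPM in SLNCR libraries, against 16.9, 19.7 and 16.5 CPM in empty vector libraries. Its groups did not overlap, as for 38.9% of all tested genes. Its log2 fold change was 0.62 (edgeR adjusted p = 0.0137), and 0.46 with the GC correction (edgeR adjusted p = 0.0573). None of these nearest genes passed with the GC correction.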

How the data were processed

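RNA of A375 cells was sequenced in 3 libraries with the SLNCR plasmid and 3 with the empty vector. The authors deposited raw read counts per gene, as the whole numbers and unequal totals of the table show. The tools were cutadapt, STAR and DESeq2 1.24.07, per the submitters' processing notes, which name GRCh38 as the build. Not given in the sources used here are the read counter, annotation and strand setting. Of 20238 rows, 1857 that name no gene (2.15% to 2.59% of counts) and 63 repeats within 22 runs of identical neighbouring rows were left out, which left 18318 genes. Of these, 18307 had a symbol, taken from a list of current gene names or, where it had none, from GENCODE 29. Coordinates came from GENCODE 29, and those of LINC00673 from RefSeq. Length and GC content of LINC00673 came from GENCODE transcripts linked to its RefSeq entries. Promoters came from RefSeq (GRCh38.p14).

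The comparison used edgeR 4.0.16 and R 4.3.3 (quasi-likelihood F-test, robust, TMM, filterByExpr, two-sided) over 12797 genes, after a test on simulated data. The biological coefficient of variation was 5.65%. Standard errors were derived from the fold change and its F statistic. The GC correction subtracted a loess curve (span 0.5) per library. Alternatives were other size factors, other filters, DESeq2 1.42.0, limma-voom (limma 3.58.1), the replicate block, the rows that name no gene and leaving out each library. The ratio of PTPN11 to PRPF19 and the ratios to SLNCR with exonic length were added after seeing the data. Replicates differed by more than sampling noise (chi-square per degree of freedom 1.79 to 7.02).

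The rule for named genes took all members, the other reported partners, up to 4 passing genes per list, the 5 genes nearest to LINC00673 and genes overlapping a member. SOX5, TFAP2C, MITF, SOX10, EPCAM, DSP, KRT7, CLDN4, KRT15, HIF1A-AS2, H2BC7 and RPLP1 fall outside that rule and were chosen after their values were seen. Some named genes and a list are not reported here. Members and lists were chosen with earlier results of these data known.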

Additional observations from a re-analysis of the deposited data

How the results depend on the processing

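LINC00673 kept its direction in every alternative run. Its log2 fold change was between 3.26 and 3.52 when each library was left out, and passed each time. With the GC correction it was 3.47 (edgeR adjusted p = 0.0539). Leaving out each library under that correction gave 3.37 to 3.62 (edgeR adjusted p between 1.95e-18 and 0.409), passing in 2 of 6 fits. The 4 that did not pass were 3.41 without SLNCR replicate 3, 3.41 and 3.50 without empty vector replicates 1 and 2, and 3.50 without empty vector replicate 3. In the other alternatives but the GC correction it passed.

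The count of changed genes was 2112. It was 2 with the GC correction and 1 to 3366 with each library left out. With both together it was 0 to 668, with 101 without SLNCR replicate 3 and 4 without empty vector replicate 3. Whether the replicate numbers pair the libraries is not settled by these values. Deviations of same-numbered libraries correlated at 0.13, -0.009 and 0.323 over 10625 genes. SLNCR replicates 1 and 3 correlated best with the empty vector library of the same number. SLNCR replicate 2 correlated best with empty vector replicate 1 (0.297). With the replicate block the count was 3523, and with the GC correction and the replicate block 408. DESeq2 gave 1641 and limma-voom 2139.

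PTPN11 turned to -0.0149 with the GC correction and to -0.0147 with the replicate block added. With the correction and SLNCR replicate 1, 2 or 3 left out it was -0.0140, -0.0211 and -0.0099, and with empty vector replicate 1, 2 or 3 left out -0.0083, -0.0347 and -0.0024. PRPF19 turned to 0.124, and to 0.123 with the block. With the correction and SLNCR replicate 1, 2 or 3 left out it was 0.153, 0.133 and 0.0863, and with empty vector replicate 1, 2 or 3 left out 0.107, 0.131 and 0.134. The cause of these changes beyond the GC offsets was not tested. SOX9, TFAP2A and LINC00511 kept their direction and passed in none of the alternatives. The 5 ratios to SLNCR kept their direction with each library left out, between -3.97 and -3.13 on the log2 scale. LINC00511 had no result under the stricter filter or with DESeq2, and these do not count among its alternatives. The order of levels per kilobase was kept with the exonic length of all transcripts, with plain CPM and with TPM. With the exonic length, LINC00673 stood at 224.5% of TFAP2A in empty vector libraries. Depth limits LINC00511, MMP9 and the antisense RNAs, whose counts are too low to show small differences.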
